A study of Homo sapiens with 4 samples.

Results

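The imprinted genes of 11p15 and 14q32 are described here in A549, an established human lung adenocarcinoma line, with and without a CRISPR guide against UHRF1. The 10 genes were taken by name: H19, IGF2, KCNQ1OT1, CDKN1C and PHLDA2 on chromosome 11, and DLK1, RTL1, MEG3, MEG8 and MEG9 on chromosome 14. They occupy 11 of the 58735 rows of the count table, because GENCODE 29 (GRCh38) gives the symbol IGF2 to 2 identifiers. RNA-seq read counts per gene came from 4 libraries. In the 2 control libraries the cells carried a non-targeting guide, and in the 2 UHRF1 KO libraries a guide against UHRF1. All 4 came from cells transduced with the lentiCRISPRv2-hygro vector and selected with hygromycin. The sources used here do not say whether the cells were clones or pools, nor how long after transduction RNA was taken. The labels also do not say that same-group libraries are separate cultures, so each p-value reflects library-to-library spread, possibly technical.

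An imprinted gene is expressed mainly from the copy inherited from one parent, and the choice is held by DNA methylation laid down in the germ line at imprinting control regions. UHRF1 recognises hemimethylated DNA behind the replication fork and brings in the maintenance methyltransferase DNMT1, which copies methylation to the new strand. At 11p15, the unmethylated maternal H19 control region binds CTCF, and H19 is transcribed from the maternal and IGF2 from the paternal chromosome. Further along the same band the paternal KCNQ1OT1 transcript accompanies silencing of CDKN1C and PHLDA2, which are expressed from the maternal chromosome. At 14q32, DLK1 and RTL1 are paternal and coding, while MEG3, MEG8 and MEG9 are maternal noncoding RNAs read in one direction through a large array of small RNAs. The counts do not separate the parental chromosomes, so every level below is the sum over both.

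Of the 10 genes, 6 passed the filter on low counts and were tested, and all 6 were higher in UHRF1 KO. H19 rose most, from near 0, and MEG3 had the most counts in UHRF1 KO. PHLDA2 and KCNQ1OT1 changed less, and MEG8 and MEG9 rose on few counts. The other 4 genes, IGF2, CDKN1C, DLK1 and RTL1, had at most 12 counts in any library. Of all 17030 genes tested, edgeR's quasi-likelihood test called 62% at an adjusted p under 0.05, 32% higher and 30.1% lower in UHRF1 KO. Those called and at least 2-fold apart were 15.4% higher and 2.54% lower. The CPM of the 2 groups did not overlap for 13616 of the 17030, so groups that do not overlap, here and below, say little about a single gene. DESeq2 called 24.6% higher and 23.5% lower, limma-voom 31.7% and 29.8%, and edgeR with no filter on low counts 17% and 15.8% of 34014 genes. H19 and MEG9 reached the filter in no control library, so they had to be higher to be tested, and the 6 of 6 is no support for a shared direction. The 4 genes that passed in both groups were MEG3, MEG8, KCNQ1OT1 and PHLDA2. Called lower were 0 of the 6 with edgeR, 0 at an unadjusted p under 0.05, 0 with DESeq2 and 0 with limma-voom. These fits share the same libraries, and H19 and MEG9 could not be called lower, so this is no support for a shared direction either. Once GC and length trends across genes were removed and each library was recentred, 1 was called lower, PHLDA2 at a log2 fold change of -0.32.

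**Figure D1:**
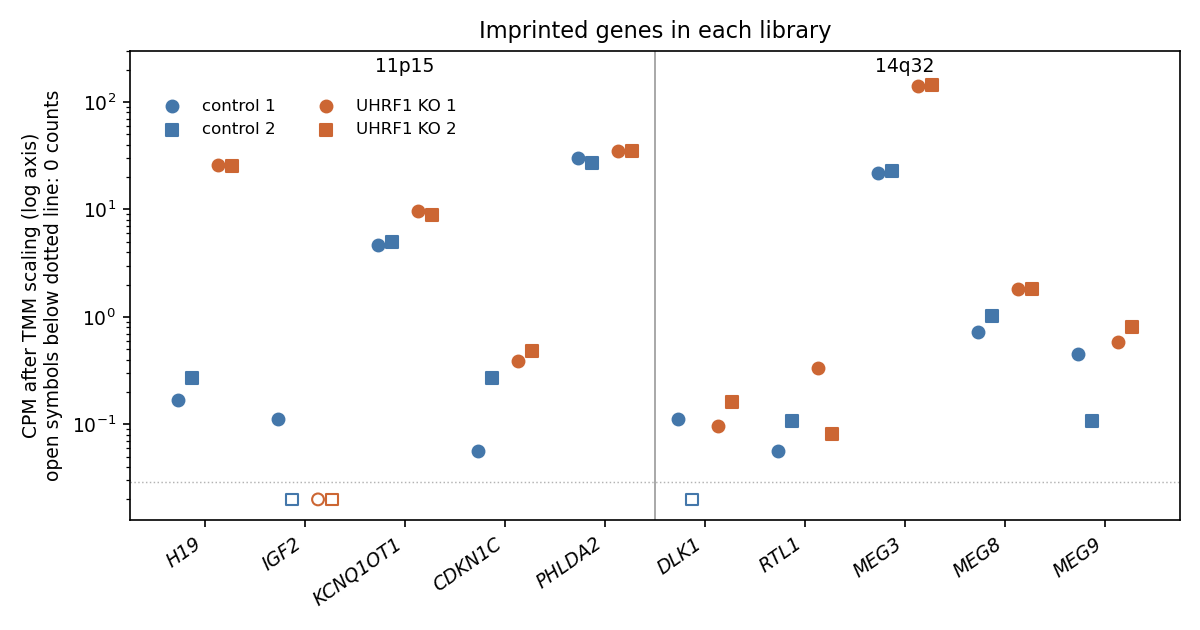
Level of each imprinted gene in each library, in CPM (a gene's count scaled to a common library size, after TMM) on a log axis, with circles for replicate 1 and squares for replicate 2. Open symbols under the dotted line mark libraries with 0 counts; both UHRF1 KO symbols of H19 lie near 25 CPM and those of MEG3 above 140 CPM, far above the controls, while those of DLK1 and RTL1 overlap the controls.

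Total counts ran from 18604598 to 23977168 per library, and 24504 to 29341 genes had at least 1 count. UHRF1 transcript stood at 98.2 ± 0.90 CPM in the controls against 39.7 ± 0.79 in the libraries labelled UHRF1 KO (SD, n = 2), and the protein was not measured. All 6 epithelial markers looked at (KRT7, KRT8, KRT18, KRT19, EPCAM and CDH1) were detected, with a summed level of 4742 to 4972 CPM in the controls against 3755 to 3777 after knockout. EPCAM was called higher, with means of 2.21 and 9.98 CPM, and the other 5 lower. Of 20 markers of other cell types, 7 could be tested and all 7 were called higher, but 5 of these (ALB, CGB5, MYH2, PDGFRB and PECAM1) reached the filter in no control library and so had to be higher to be tested. The other 2 were COL1A1 and CD14, and 32% of all genes tested were called higher. CD14 had 31 and 34 control counts and 107 and 138 in UHRF1 KO. The summed level over all 20 was 6.23 and 7.82 CPM in the controls and 56.3 and 60.1 in the knockouts. PECAM1, an endothelial adhesion molecule, made up 51.4% of that UHRF1 KO level, with 7 and 2 control counts and 607 and 759 in UHRF1 KO. The other endothelial markers stayed low: CDH5 had 0 and 0 control counts and 3 and 0 in UHRF1 KO, and VWF 1 and 0 against 11 and 11. Among collagen genes, COL1A1 had means of 3.78 and 15.6 CPM, while COL3A1 had 1 and 1 control counts and 6 and 6 in UHRF1 KO. The T cell gene CD3E, the placental hormone subunit CGA and HLA-G of the trophoblast were at 0 in all 4 libraries. CGB5, another placental hormone subunit, had 2 and 0 control counts and 11 and 29 in UHRF1 KO, and the leukocyte gene PTPRC had 0 and 0 control counts and 10 and 20 in UHRF1 KO. The summed level of the other-cell markers was higher in the same libraries as H19 and MEG3, and the part of other cell types in those rises was not tested.

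H19 is a spliced noncoding RNA, abundant in fetal tissue and muscle, whose transcript carries the microRNA miR-675 in its first exon. The gene (ENSG00000130600) lies on the minus strand of chromosome 11 from 1995176 to 2001470 in GRCh38. It had 3 and 5 counts in the controls and 533 and 626 in the UHRF1 KO libraries. In CPM these were 0.17 and 0.27 against 25.7 and 25.2, so the groups lay far apart and the UHRF1 KO libraries were close to each other. The fitted log2 fold change was 6.81 (SE 0.22, edgeR adjusted p = 1.76e-23), or 112.6-fold. With so few control counts, the ratio of summed counts, 115.6, has a 95% exact interval from 58.5 to 268.4 that covers counting error only. The fitted value ran from 6.29 to 7.17 over 14 alternative fits. By fitted fold change H19 ranked 283 of the 17030 genes tested. In bulk RNA, more cells with the transcript and more transcript per cell cannot be told apart, here and for every gene below.

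MEG3 is the long noncoding RNA at the head of the maternal transcript of 14q32, with growth-restraining activity in cell lines. The gene (ENSG00000214548) is annotated on the plus strand of chromosome 14 from 100779410 to 100861031. Its counts were 386 and 419 in control and 2911 and 3567 in UHRF1 KO. In CPM these were 21.6 and 22.6 against 140.4 and 143.5, with little spread within a group. The log2 fold change was 2.68 (SE 0.058, edgeR adjusted p = 2.92e-28), which is 6.42-fold, and it ran from 2.47 to 2.79 over 14 alternative fits. Among 779 lincRNA genes tested, 317 were higher and 56 lower, with a median log2 fold change of 0.48, and MEG3 ranked 118 by fold change. On the per-length scale, CPM per kilobase of merged exons (RPKM), MEG3 moved from rank 285 to rank 54 among all 7629 lincRNA rows. Over its longest transcript MEG3 was at 1.70 RPKM in control and 10.9 in UHRF1 KO, and ranks on that length were not computed.

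The RefSeq start regions of these noncoding RNAs are shown because they are the sequence nearest to the transcripts that rose. Each window runs from 250 bases before to 50 bases after an annotated start, on the transcript's strand in GRCh38.p14, 5′ to 3′, with CpG dinucleotides, the sites that UHRF1 and DNMT1 maintain, in capitals. H19 is chr11:2001217-2001516 (minus strand), MEG3 is the outermost of its 3 listed starts, chr14:100825858-100826157 (plus strand), and MEG9 is chr14:101069661-101069960 (plus strand). The H19 window holds the start of the counted H19 row, at 2001470. The MEG3 and MEG9 windows lie inside the counted rows, which start upstream at 100779410 and 101064151. Their CpGs and motifs are those of the RefSeq starts, not of the starts of these rows. Which start was used in these cells was not tested.
H19: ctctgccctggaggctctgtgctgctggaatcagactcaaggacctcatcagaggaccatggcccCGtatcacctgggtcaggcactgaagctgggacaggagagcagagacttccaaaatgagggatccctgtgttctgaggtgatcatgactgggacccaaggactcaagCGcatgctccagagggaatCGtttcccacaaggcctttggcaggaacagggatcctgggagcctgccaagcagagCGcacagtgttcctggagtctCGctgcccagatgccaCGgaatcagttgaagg
MEG3: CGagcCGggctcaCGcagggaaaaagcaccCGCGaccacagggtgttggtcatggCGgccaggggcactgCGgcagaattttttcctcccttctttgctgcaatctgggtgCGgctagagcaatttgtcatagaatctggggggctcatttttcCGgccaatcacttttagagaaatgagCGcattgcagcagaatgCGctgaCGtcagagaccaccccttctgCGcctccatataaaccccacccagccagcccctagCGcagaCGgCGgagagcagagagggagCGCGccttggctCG
MEG9: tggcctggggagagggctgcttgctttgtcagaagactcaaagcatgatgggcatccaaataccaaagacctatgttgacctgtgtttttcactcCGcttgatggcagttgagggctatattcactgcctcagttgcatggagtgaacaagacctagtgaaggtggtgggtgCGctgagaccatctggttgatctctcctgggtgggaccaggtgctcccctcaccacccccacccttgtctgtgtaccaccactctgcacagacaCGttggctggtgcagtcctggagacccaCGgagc
The MEG3 window held 19 CpGs, those of H19 and RTL1 6 each and that of MEG9 4, against a median of 14 over 35116 RefSeq windows of the same length. Fewer CpGs than in the MEG3 window were found in 57.1% of all windows, and fewer than in the H19 window in 33.7%. Searched on both strands, the cAMP response element TGACGTCA was found in the MEG3 window at base 201 and TATAAA at base 233, counted from 1 at the 5′ end. All windows held these motifs in 1.85% and 11.5% of cases. TGCCGC, the core read by ZFP57 when methylated, was found on the opposite strand at base 70 of the MEG3 window and in 16.7% of all windows. None of these 3 motifs was found in the windows of H19, RTL1 or MEG9. The windows are not the imprinting control regions, and methylation was not measured. A window was found for 4 of the 10 genes.

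MEG8 and MEG9 lie downstream of MEG3 on the same strand and are usually regarded as parts of one long transcription unit. MEG8 (ENSG00000225746, chromosome 14, 100894770 to 101038859) had 13 and 19 counts in control and 38 and 45 in UHRF1 KO. In CPM these were 0.73 and 1.02 against 1.83 and 1.81, so the groups did not overlap. Its log2 fold change was 1.05 (SE 0.35, edgeR adjusted p = 0.0108). The call was lost with DESeq2 (adjusted p = 0.0901) and without control replicate 1 (0.0839), UHRF1 KO replicate 1 (0.0534) or UHRF1 KO replicate 2 (0.0557) with edgeR, and the adjusted p ran from 0.00240 to 0.0901 over 14 alternative fits. MEG9 (ENSG00000223403, chromosome 14, 101064151 to 101072937) had 8 and 2 counts in control and 12 and 20 in UHRF1 KO. In CPM its controls were at 0.45 and 0.11 and its UHRF1 KO libraries at 0.58 and 0.80, so the groups did not overlap but the controls lay farther apart than the higher of them from the lower UHRF1 KO library. The fitted change of 1.33 on the log2 scale (SE 0.58, edgeR adjusted p = 0.0472) was 0.61 without control replicate 2 and 2.61 without control replicate 1. The adjusted p of MEG9 ran from 0.0258 to 0.501, and the call was lost in 8 of 13 alternative fits.

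Within a library, MEG8 and MEG9 can be set against MEG3 without any scaling. MEG8 had 3.37 and 4.53 counts per 100 MEG3 counts in the controls and 1.31 and 1.26 in the UHRF1 KO libraries. The share was thus lower in both UHRF1 KO libraries than in both controls. With 2 libraries against 2 an exact two-sided permutation test cannot go below p = 0.333, so that difference in ratio carries no p. MEG9 had 2.07 and 0.48 counts per 100 MEG3 counts in control and 0.41 and 0.56 in UHRF1 KO, and these groups overlapped. MEG8 shares 14.1% of its exon length with AL117190.1 on the same strand, a row with 1, 0, 0 and 6 counts.

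The small RNAs of these transcripts had few or no counts in these mRNA libraries. The part of library type, or of how reads in overlapping genes were counted, was not tested. All 53 microRNA rows of the 14q32 window and all 5 of the 11p15 window were at 0 in all 4 libraries, MIR675 and MIR770 among them. The C/D box snoRNA array of 14q32 gave 9 and 4 counts over 47 snoRNA rows in control and 17 and 18 in UHRF1 KO, on 14 rows with any count. The mature microRNAs read from the exons of H19 and MEG3, and miR-127-3p, read from the strand opposite to the RTL1 exon, are given as RefSeq lists them (GRCh38.p14), with the seed, bases 2 to 8, in capitals. No 2 of these share a seed.
hsa-miR-675-5p: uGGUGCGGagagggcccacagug
hsa-miR-675-3p: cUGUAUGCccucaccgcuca
hsa-miR-770-5p: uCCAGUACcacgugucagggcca
hsa-miR-127-3p: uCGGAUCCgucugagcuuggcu
Their place in the host is known from the annotation alone, and a rise of the host row says nothing measured about the mature forms.

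DLK1 and RTL1, the paternally expressed coding genes of 14q32, stayed near the floor. DLK1 (ENSG00000185559, chromosome 14, 100725705 to 100738224) encodes a membrane protein of the Delta-like family that restrains adipocyte differentiation. It had 2 and 0 counts in control and 2 and 4 in UHRF1 KO, a ratio of 2.39 with a 95% exact interval from 0.43 to 24.3. RTL1 (ENSG00000254656, chromosome 14, 100879753 to 100903722) is a retrotransposon-derived gene needed in the placenta. It had 1 and 2 counts in control and 7 and 2 in UHRF1 KO, a ratio of 2.39 with an interval from 0.60 to 13.7. Both intervals, which cover counting error only, include 1, and the groups overlapped for both genes. With no filter on low counts, edgeR gave adjusted p = 0.646 for DLK1 and adjusted p = 0.556 for RTL1. The floor of 3 counts was worth 0.121 to 0.168 CPM by library, so a fall or a small rise in either gene was not detectable at this depth. RTL1 exons also lie opposite to 5 microRNA genes of the MEG strand, all at 0, and the sources used here do not say whether counting used strand.

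IGF2, the paternally expressed growth factor beside H19, had at most 2 counts in any library. Its main row (ENSG00000167244, chromosome 11, 2129112 to 2149603) had 2 and 0 counts in control and 0 and 0 in UHRF1 KO, and its other row (ENSG00000284779) was at 0 throughout. The 2 rows share 5144 bases of exon, 73.7% of the exon length of the former and 87.9% of the latter, and the readthrough gene INS-IGF2, also at 0, covers 20.9% and 27% of them. The sources used here do not say how reads that fall in more than 1 gene were counted. The share of IGF2 reads lost to this overlap was not tested, so no level of IGF2 is read from these counts.

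KCNQ1OT1 is the unspliced antisense RNA that starts inside KCNQ1 at the other control region of 11p15. The gene (ENSG00000269821, chromosome 11, 2608328 to 2699994, minus strand) had 83 and 93 counts in control and 201 and 223 in UHRF1 KO. In CPM these were 4.65 and 5.01 against 9.69 and 8.97, and the groups did not overlap. The log2 fold change was 0.94 (SE 0.15, edgeR adjusted p = 1.96e-06), or 1.92-fold. It was 0.36 (adjusted p = 0.0359) once GC and length trends across genes were removed and 0.06 (adjusted p = 0.725) with each library also recentred on its mean log2 deviation across genes (recentring), settings added after the data were seen, and 0.87 to 1.05 in the other 12 edgeR, DESeq2 and limma-voom fits. Its annotated transcript is 91667 bases long. KCNQ1, the potassium channel gene on the other strand, shares 121 exon bases with it and had 5 and 2 control counts and 5 and 4 in UHRF1 KO. Reads from KCNQ1 introns would fall in KCNQ1OT1 without strand, and their part was not tested.

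CDKN1C and PHLDA2 are the maternally expressed coding genes that face KCNQ1OT1. CDKN1C (ENSG00000129757, chromosome 11, 2883213 to 2885773) encodes p57, an inhibitor of cyclin-dependent kinases. It had 1 and 5 counts in control and 8 and 12 in UHRF1 KO, or 0.056 and 0.27 against 0.39 and 0.48 CPM, so the groups did not overlap. The ratio of summed counts was 2.66, with a 95% exact interval from 1.03 to 8.09 for counting error only, and the gene did not pass the filter. Included with no filter it did not pass edgeR's test (adjusted p = 0.220). Its relatives of the same inhibitor family were far more abundant: CDKN1A (p21) rose from 138.1 ± 0.33 to 388.9 ± 6.28 CPM, while CDKN1B (p27) fell from 55.4 ± 1.78 to 45.1 ± 3.01 CPM (SD, n = 2; edgeR adjusted p = 4.11e-26 and adjusted p = 1.62e-04).

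PHLDA2 (ENSG00000181649, chromosome 11, 2928273 to 2929455) encodes a small pleckstrin-homology protein that limits placental growth. It was expressed in control cells, with 541 and 498 counts against 730 and 868 in UHRF1 KO. In CPM these were 30.3 and 26.8 against 35.2 and 34.9, so the groups did not overlap, and the controls were spread more widely than the UHRF1 KO libraries. Its change of 0.29 on the log2 scale (SE 0.076, edgeR adjusted p = 0.00122) was -0.03 (adjusted p = 0.777) once GC and length trends were removed and -0.32 (adjusted p = 1.08e-04) with recentring as well, so its direction rests on those corrections. It stayed positive, from 0.29 to 0.40, with DESeq2 size factors, upper-quartile factors or total counts. Without control replicate 2 it was 0.19 (adjusted p = 0.0601). The family members PHLDA1 and PHLDA3, which are not known as imprinted genes, had log2 fold changes of 0.69 (SE 0.037) and 0.48 (SE 0.054, but -0.04 with recentring).

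**Figure D2:**
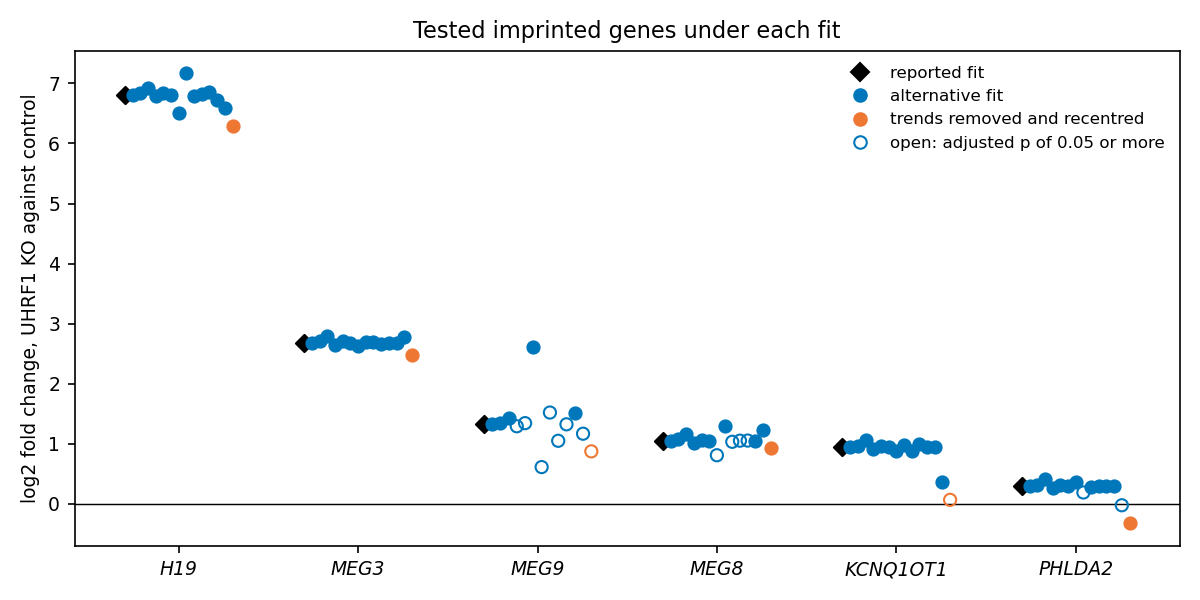
log2 fold change (UHRF1 KO against control) of the 6 tested imprinted genes in the reported fit (diamond) and in each alternative fit (circles), filled where the adjusted p was under 0.05. H19 stayed between 6.29 and 7.17 and MEG3 between 2.47 and 2.79, MEG9 was mostly open, and the orange circle, with trends removed and libraries recentred, lay at 0.06 for KCNQ1OT1 and at -0.32, below 0, for PHLDA2.

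Levels can be ordered per length. In control, in RPKM over merged exons, PHLDA2 was at 29.9 ± 2.59 and MEG3 at 0.95 ± 0.029 (SD, n = 2). MEG9, MEG8, H19, CDKN1C and KCNQ1OT1 followed at 0.087 ± 0.075, 0.079 ± 0.019, 0.076 ± 0.025, 0.066 ± 0.061 and 0.053 ± 0.0028 RPKM, a run in which neighbours did not differ beyond their spread. RTL1 and DLK1 were lowest, at 0.015 and 0.011 RPKM, and IGF2 is left out because its level cannot be read. In UHRF1 KO the order was PHLDA2 at 36.7 ± 0.21, H19 at 8.78 ± 0.13 and MEG3 at 6.11 ± 0.095 RPKM, each apart from the next. MEG9, CDKN1C and MEG8, at 0.22 ± 0.050, 0.18 ± 0.028 and 0.16 ± 0.0014 RPKM, did not differ beyond their spread, and KCNQ1OT1 was at 0.10 ± 0.0056. The order of H19 and MEG3 in UHRF1 KO depends on the length used, since over the longest transcript of each they were at 10.8 and 10.9 RPKM. The place of MEG8 depends on it too: over the longest transcripts MEG8 was at 0.233 RPKM in control, above MEG9 at 0.105 and H19 at 0.093. In UHRF1 KO it was then at 0.485, above MEG9 at 0.262 and CDKN1C at 0.224 RPKM.

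The genes around the clusters were taken by position, up to 250 kb beyond the outermost listed genes. Of 181 such rows 21 were tested, 13 were called higher and 5 lower, with a median log2 fold change of 0.61 against 0.02 over all genes tested. Shares over all genes tested were 32% higher and 30.1% lower. Rows called higher are not all separate: AC068580.4 shares exon bases with CTSD, IFITM10 and AC068580.3, and AC068580.1 lies inside CTSD. The counts therefore do not measure how many genes around the clusters rose independently. TH, LSP1 and AC068580.2 reached the filter in no control library and had to be higher to be tested; the other 18 had 10 higher, 5 lower and a median of 0.36. Most of the 160 others are small RNA genes or silent, and 122 rows had 0 counts in all 4 libraries. DESeq2 called 8 higher and 2 lower, and with recentring the edgeR counts were 7 higher and 8 lower.

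On the H19 side of 11p15, the lysosomal protease gene CTSD rose by 0.88 on the log2 scale (SE 0.040, edgeR adjusted p = 1.05e-18), with means of 223.9 ± 16.4 and 412.1 ± 2.36 CPM. With recentring that value was 0.34. IFITM10 and the readthrough AC068580.4 beside it, AC068580.3 and AC068580.1 were also called higher. AC068580.3, on the opposite strand, shares 24.5% of its exon length with CTSD and AC068580.4 shares 27.1%, and AC068580.1 lies inside CTSD, so their counts are uncertain. In 6 of 14 alternative fits AC068580.1 was not called higher, and IFITM10 in 4. LSP1, an actin-binding protein of leukocytes, had 2 and 3 counts in control and 33 and 54 in UHRF1 KO, a ratio of 13.9 with a 95% exact interval from 5.73 to 43.8. TH, the tyrosine hydroxylase gene beyond IGF2, had 0 and 0 against 15 and 16 counts, at least 8.25-fold higher against a floor of 3 counts over both controls, and is named here after its values were seen. MRPL23, a mitochondrial ribosomal protein gene between LSP1 and H19 and also named after its values were seen, split the knockout libraries at 191 and 456 counts around controls of 313 and 315, and was not called (log2 fold change -0.30, SE 0.45, edgeR adjusted p = 0.633).

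From RPL26P30 to OSBPL5, the stretch of 11p15 around KCNQ1OT1, changes went both ways. The transporter gene SLC22A18, next to PHLDA2 and also imprinted in some tissues, had a log2 fold change of 0.34 (SE 0.085, but -0.19 with recentring), while the gene antisense to it, SLC22A18AS, fell by 0.95 (SE 0.23). Their exons share 227 bases, and without known strand the counts of both are uncertain. NAP1L4, a histone chaperone gene, fell by 0.31 (SE 0.042), and TSSC4 fell by 0.24 (SE 0.074) with the call lost in DESeq2 (adjusted p = 0.0632), with total counts alone (0.141) and without UHRF1 KO replicate 2 (0.0962). The tetraspanin gene CD81 had a log2 fold change of 0.14 (SE 0.047, -0.28 with recentring) and was not called higher in 6 of 14 alternative fits, and the pseudogene RPL26P30 fell by 1.36 (SE 0.48), a call lost without control replicate 1, without UHRF1 KO replicate 1 or with DESeq2. OSBPL5, an oxysterol-binding protein gene at the centromeric end of the window, rose by 1.42 on the log2 scale (SE 0.11, edgeR adjusted p = 1.29e-12), with means of 7.28 ± 0.15 and 19.5 ± 1.09 CPM. At 14q32, BEGAIN, a postsynaptic density protein gene upstream of DLK1, rose by 1.17 on the log2 scale (SE 0.13), with means of 5.74 ± 0.58 and 12.95 ± 0.45 CPM. WDR25 had a log2 fold change of 0.39 (SE 0.12) that was -0.10 with recentring. Its call was also lost with DESeq2 (adjusted p = 0.0619) and with edgeR after GC and length trends were removed (0.20, adjusted p = 0.132). WDR25 shares 287 exon bases with WARS on the opposite strand, a row of 2995 to 3783 counts. Without known strand the counts of WDR25 are uncertain.

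**Figure D3:**
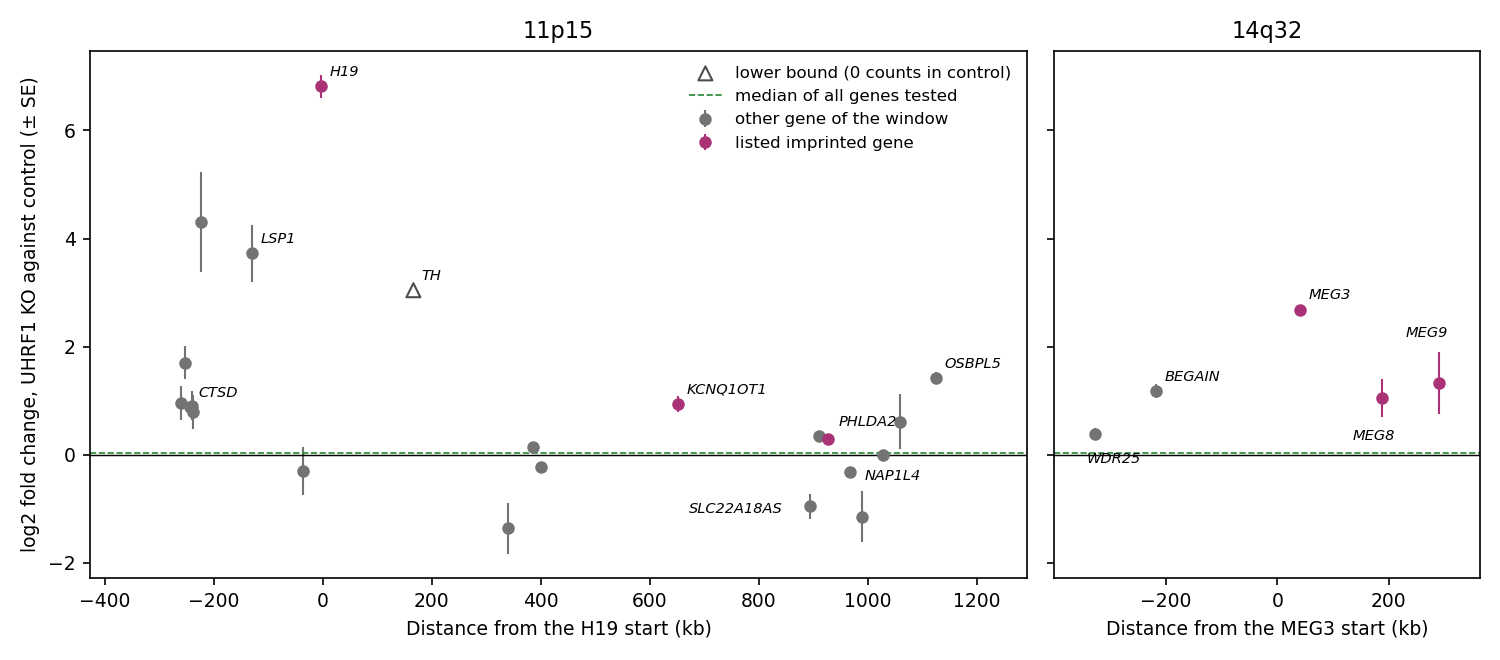
log2 fold change (UHRF1 KO against control, bars ± SE) of every tested gene of the 11p15 and 14q32 windows against the distance of its midpoint from the annotated start of H19 or MEG3, in kb along the chromosome. Listed imprinted genes are purple and the others grey, TH is drawn at its lower bound, and on 11p15 values lie on both sides of 0, while the 2 tested neighbours on 14q32 lie at 0.39 (WDR25, below 0 with recentring) and 1.17 (BEGAIN); PHLDA2, at 0.29, lay below 0 with trends removed and with recentring.

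Of the genes listed as regulators of imprints, more were called lower than higher. The list is broad and also holds TET1, TET2, TET3 and HNRNPU. Of 28 tested among 32 listed, 3 were called higher and 16 lower, with a median log2 fold change of -0.24. Of 27 without UHRF1, 3 were higher and 15 lower, with a median of -0.18. Over all genes tested, 32% were called higher and 30.1% lower. The counts depend on scaling: with total counts alone 4 of the 28 were called higher and 13 lower, and with recentring 2 and 22. Only UHRF1 was called and at least 2-fold lower. CTCF, the insulator protein that binds the unmethylated H19 control region, fell from 96.2 ± 1.18 to 61.6 ± 1.33 CPM (log2 fold change -0.64, SE 0.051, edgeR adjusted p = 8.94e-13). Its germline paralogue CTCFL had 0 and 2 counts in control and 114 and 133 in UHRF1 KO, a ratio of 98.5 with a 95% exact interval from 26.99 to 818.2 for counting error. CTCFL reached the filter in no control library, and its fitted log2 fold change of 6.47 was 5.56 without control replicate 1 and 9.84 without control replicate 2, where the remaining control has 0 counts and the fitted value depends on the prior count. HNRNPU, a nuclear matrix RNA-binding protein, fell by 0.47 (SE 0.032). The de novo methyltransferase DNMT3B rose by a log2 fold change of 1.34, and the histone methyltransferase gene EHMT2 had 0.17 (SE 0.071, edgeR adjusted p = 0.0396, but -0.32 with recentring). The cohesin genes SMC1A, SMC3 and RAD21, which act with CTCF, fell by 0.43, 0.45 and 0.42, and ZNF445, a zinc finger guardian of imprints, fell by 0.38. Its partner in that role ZFP57 had 1, 1, 3 and 1 counts and was not tested.

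Receptors, binding proteins and effectors of the IGF route were expressed, whatever the level of IGF2 itself. Of 24 tested among 29 genes, 8 were called higher and 8 lower, with a median log2 fold change of 0.01. That is near the shares over all genes tested, 32% higher and 30.1% lower, so the counts set this list apart in neither direction. The receptor genes IGF1R and IGF2R were at 349.6 ± 2.06 and 324.9 ± 11.03 CPM in control and did not pass the test, with log2 fold changes of -0.01 (SE 0.035) and 0.02 (SE 0.036). The insulin receptor gene INSR rose by 0.57 (SE 0.096). Among binding proteins, which hold IGFs outside the cell, IGFBP1 rose 5.55-fold from 33.8 ± 0.065 to 187.2 ± 4.86 CPM and IGFBP2 rose 1.87-fold from 42.6 ± 2.23 to 79.7 ± 1.22 CPM. IGFBP4, the most abundant of them in counts, fell 1.62-fold from 2040 ± 74.3 to 1260 ± 30.6 CPM. STC1 rose 3.02-fold and STC2 fell 1.43-fold, both genes of stanniocalcins that inhibit the protease PAPPA. IRS2, an adaptor below the receptors, fell 1.59-fold. With total counts alone the list had 13 called higher and 4 lower, with recentring 7 and 15, and without UHRF1 KO replicate 2 8 and 4.

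**Figure D4:**
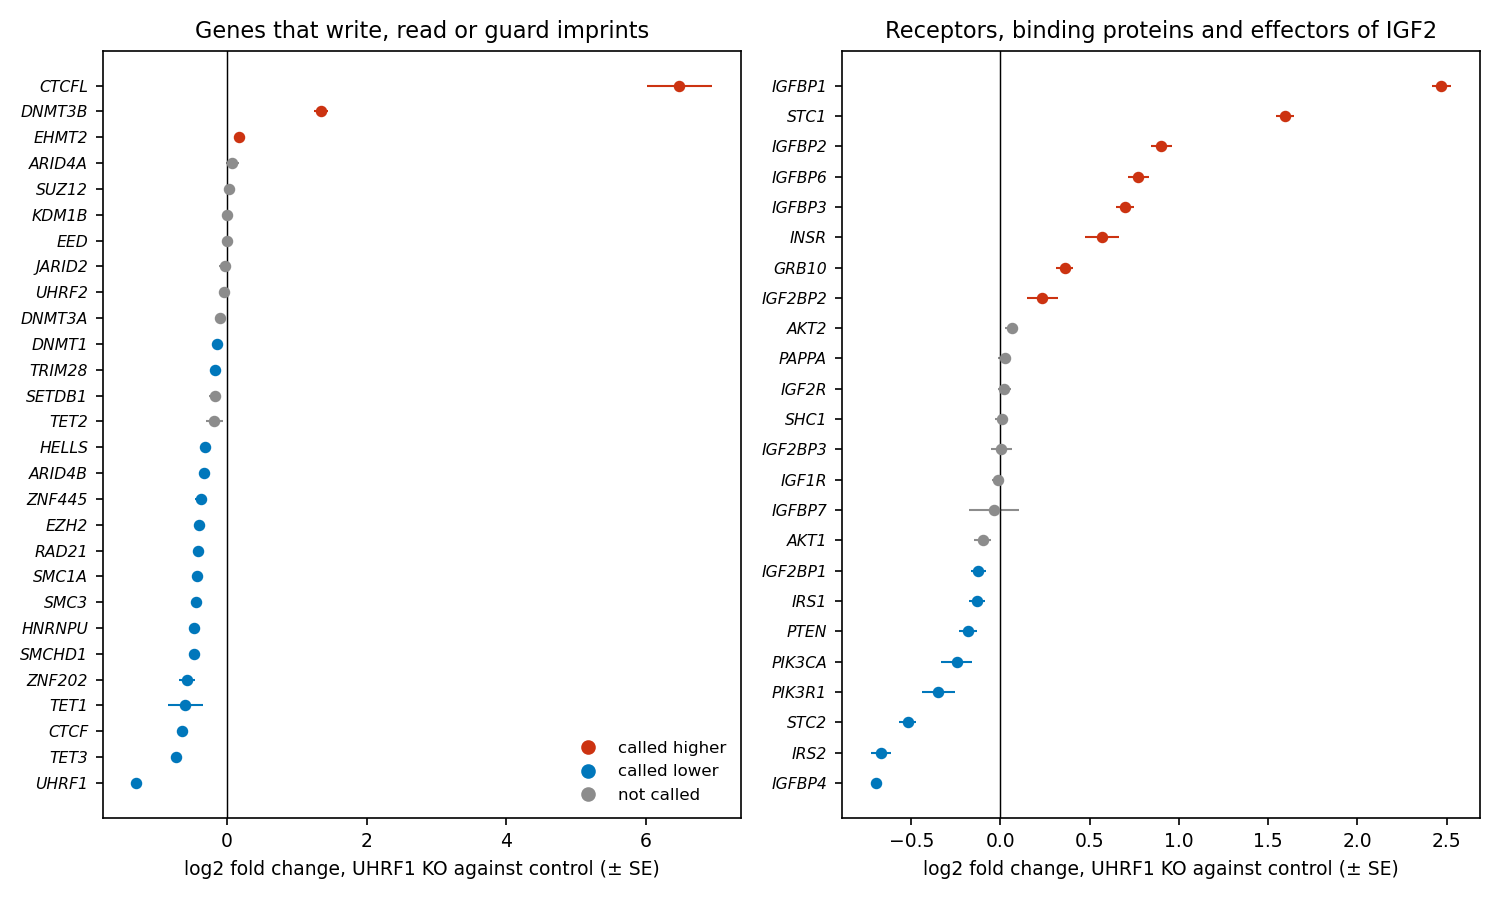
log2 fold change (UHRF1 KO against control, bars ± SE) of the tested genes listed as regulators of imprints (left) and of the IGF2 receptors, binding proteins and effectors (right), with calls in colour. On the left 16 genes lie below 0 as called and CTCFL stands alone above 6; on the right IGFBP1 and STC1 lie highest and IGFBP4 lowest, and EHMT2 turned to -0.32 with recentring.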

How the data were processed

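Raw read counts, unnormalized whole numbers, were deposited for 58735 Ensembl gene identifiers, all of which GENCODE 29 names. Per the submitters' processing notes, FastQC 0.10.1 and GRCh38 were used; the aligner, counter, annotation and strand setting are not given in these sources. Both control descriptions carry number 1, so control columns were matched by the number in the titles. Only the replicate block, left-out controls, the sign of the same-numbered correlation and the order of control values depend on this. Counts were fitted over the whole table in R 4.3.3 with edgeR 4.0.16 (filterByExpr, TMM, robust quasi-likelihood test, two-sided, Benjamini-Hochberg over 17030 genes). The SE came from dividing each log2 fold change by the root of its F statistic, and CPM uses TMM sizes. limma 3.58.1, DESeq2 1.42.0, other scalings, filters, thresholds, the replicate block and left-out libraries were alternatives. The steps were tested on simulated counts in which few genes changed, unlike these data, so that test does not bear on the choice of scaling. Replicates differed by 2.65 (control) and 1.85 (UHRF1 KO) chi-square per degree of freedom, more than counting noise. Beyond counting noise, edgeR's common dispersion gave a coefficient of variation of only 3.16% within groups, on 2 residual degrees of freedom. Named were the members, UHRF1, called neighbours of at least 1 CPM (at most 16), up to 3 calls per list and direction, and the CDKN1 and PHLDA families; other list members named were chosen after their values were seen. Members and lists were chosen with earlier results of these data known. Intervals are 95% exact and cover counting error only.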

Additional observations from a re-analysis of the deposited data

How the results depend on the processing

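Over 14 alternatives H19, MEG3, CTSD, OSBPL5, BEGAIN, CTCF and IGFBP1 kept their direction and call. The imprinted genes called higher numbered 5 and 4 of 7 tested without control replicate 1 or 2, 4 of 6 without either UHRF1 KO library, 4 with DESeq2, 4 after removing GC and length trends, and 3 higher and 1 lower with recentring, which shifted the median gene by -0.29; total counts alone shifted it by 0.11. Neighbours called higher numbered 6 at 2-fold, 8 with DESeq2 and 7 with recentring; those lower numbered 3 at an adjusted p under 0.01, 2 at 2-fold, 3 with total counts, 3 at 1 CPM in 2 libraries, 3 to 4 without a library, 2 with DESeq2 and 8 with recentring. Imprint regulators called higher numbered 5 with trends removed, and 1 was called lower at 2-fold. IGF genes called higher numbered 2 at 2-fold and 13 with total counts; those lower numbered 5 at 0.01, 0 at 2-fold, 4 with total counts, 4 to 9 without a library, 5 with trends removed and 15 with recentring. Fewer calls at 2-fold or at 0.01 follow from the stricter threshold; for the others the cause was not tested. Reversed values were PHLDA2 at -0.026 (trends removed) and -0.32 (recentred), EHMT2 at -0.017 and -0.32, and, recentred only, SLC22A18 at -0.19, WDR25 at -0.10, CD81 at -0.28 and PHLDA3 at -0.036. With the replicate number as a block, 5 imprinted genes were called higher and MEG9 was not (adjusted p = 0.0665); same-numbered libraries deviated with a correlation of -0.085 across 11102 genes, so the numbers were not taken as pairs. Without UHRF1 KO replicate 1 the RTL1 log2 ratio of summed counts was -0.04, and that of CDKN1C ran from 0.70 to 2.97 without a control. Depth limits DLK1, RTL1, CDKN1C and MEG9.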
